A study of Mus musculus with 27 samples.

Results

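The comparison was between lung clones in 6 mice of the TC genotype and 9 mice of the KT genotype, taken from a series of 27 mice in 4 genotypes. TC mice carried R26LSL-Tomato, a fluorescent reporter, and H11LSL-Cas9, the genome-cutting enzyme, and both are switched on by Cre recombinase. KT mice carried the reporter and an engineered oncogene allele that Cre switches on, and had no Cas9. All 15 mice received the same pool of 8 lentiviral vectors, each of which carried Cre, barcodes and guide RNAs, and lungs were harvested after 3 months. The mice were chosen by their genotype label and every clone listed for them was used: 208162 clones in TC mice and 216386 in KT mice, of 490589 in the series. A clone was 1 barcode in 1 mouse, and its size was the deposited number of cells.

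The 2 genotypes differ in Cas9 and in the engineered oncogene at once, so the effects of these cannot be told apart here. KT and TC mice were named with different first letters, so handling and genotype cannot be told apart either. The labels give no viral dose per mouse. The cells counted are those that took up a vector with Cre, and the tissue was bulk lung, so no cell type marker was measured.

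Barcoded vectors make each transduced cell the founder of a clone that can be counted in sequenced DNA. Where Cas9 is present, the guides of a vector can cut their target genes in the same cell, and without Cas9 they cut nothing. Nf1 and Rasa1 both encode GTPase-activating proteins, which switch RAS proteins off, so their loss leaves RAS more active. In the mouse assembly GRCm38, Nf1 (Gene ID 18015) lies on chromosome 11 from 79339590 to 79581609 and Rasa1 (Gene ID 218397) on chromosome 13 from 85214699 to 85289486. Of the 8 vectors, the inert vector carries only control guides, and others target Nf1, Rasa1 or both genes together. The remaining 4 vectors were described as 1 group.

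TC mice had a larger part of their clones above 100 cells than KT mice, and the mean of their 10 largest clones was 5.34-fold bigger. Both calls were lost when every mouse was scaled to the same read total. Clones of 1000 or more cells made up 0.666% ± 0.297 (SD, n = 6) of the clones in TC mice and 0.223% ± 0.1499 (SD, n = 9) in KT mice. The inert vector was rarer in TC mice in every size class, most of all among the large clones, where it held 4.75% ± 2.90 (SD, n = 6) against 16.3% ± 4.48 (SD, n = 9). The Nf1 vector also held a lower share of the large clones in TC mice, at 12.3% ± 2.96 (SD, n = 6) against 19.5% ± 6.39 (SD, n = 9). That call was lost in 9 of the 15 fits that left out 1 mouse. The Rasa1 vector held 6.58% ± 4.26 (SD, n = 6) against 10.6% ± 4.24 (SD, n = 9), which did not pass. Measured against the inert vector, a ratio chosen after the shares were seen, those targeting Nf1, Rasa1 or both were more frequent among large clones in TC mice. With other class limits or scaled reads the calls on that ratio were lost for the single-gene vectors. The pair vector was higher over inert among small clones too, by 1.09 against 2.39 among large clones on the log2 scale. Its call among small clones was lost on clones of at least 25 cells. The log2 ratio of its share of large clones to its share of small clones differed by -0.06, which did not pass.

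The mice differed in depth and in clone number. TC mice had 220043 to 6594647 reads and 4740 to 53536 clones each, and KT mice had 526384 to 1166938 reads and 18067 to 31906 clones. The reads per 1000 cells were 668 to 1154 in TC mice and 708 to 1173 in KT mice. TC replicate 1 had both the fewest reads and the fewest clones of the 15 mice. The number of clones per mouse differed by 0.20 on the log2 scale (exact permutation p = 0.713), and without TC replicate 1 by 0.70 (exact permutation p = 0.0130). The summed cells differed by 1.48 on the log2 scale (exact permutation p = 0.0501, adjusted 0.1003), and without TC replicate 1 by 2.23 (exact permutation, adjusted p = 0.000999).

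The vector that targets Nf1 and Rasa1 together set some mice apart. Its share of the clones under 100 cells was 1.41% to 1.86% in KT replicates 2, 3 and 8, and 1.44% in TC replicate 1. In the other KT mice it was 3.11% to 3.91%, and in the other TC mice 4.32% to 7.49%. Where leaving out these 4 mice changed a call on the vectors for Nf1, Rasa1 or both, both values are given. The 4 mice were picked by this share in these same data, so a call gained without them is no independent support.

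The smallest clones held a step in the read counts. In all 15 mice fewer barcodes had 1 read less than the step than had the smallest count, of 2 to 7 reads, and at the step, at 10 to 16 reads or 10.2 to 20.5 cells, the number rose. In 13 of 15 mice the count at the step was at least 1.5 times that 1 read below. The rise was steepest in KT replicate 9, from 2 barcodes to 917, and was slight in KT replicates 2 and 3, at 1.23 and 1.08 times. The rule that produced it is not given in the sources used here. Clones under the step made up 25.9% ± 14.8 (SD, n = 6) of the clones in TC mice and 44.3% ± 8.08 (SD, n = 9) in KT mice. They held little of the pair vector for Nf1 and Rasa1: 1.17% in TC and 0.796% in KT mice, against 6.6% and 4.47% of the clones from the step up to 100 cells. Every tested result on small clones was therefore recomputed on clones of at least 25 cells, which lie above the step in all 15 mice.

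**Figure D1:**
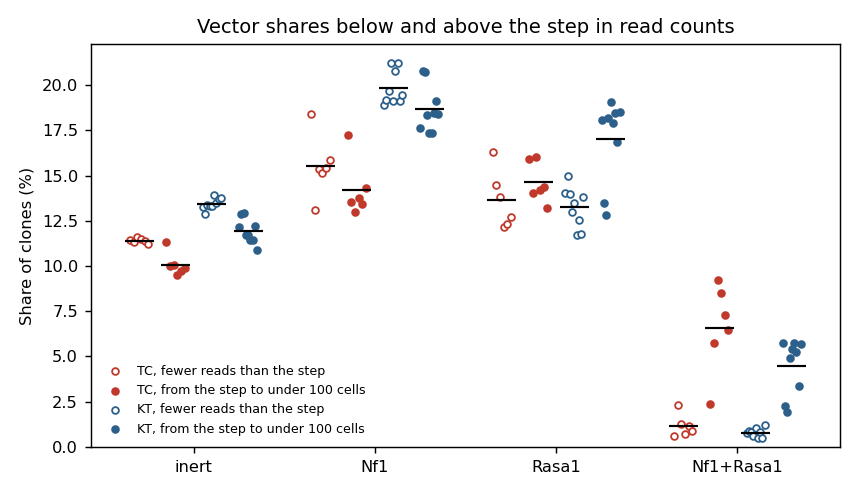
Percent of clones that carried the inert, Nf1, Rasa1 or Nf1+Rasa1 vector among clones with fewer reads than the step (open points) and among those from the step to under 100 cells (filled points), with 1 point per mouse and lines at the means. The Nf1+Rasa1 vector goes from 1.17% to 6.6% in TC mice and from 0.796% to 4.47% in KT mice.

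The classes of clone size were compared first. Small clones, under 100 cells, made up 72.5% to 98.3% (median 81.0%) of the clones in TC mice and 91.8% to 97.0% (median 94.6%) in KT mice. In 5 of 6 TC mice the share was below that of every KT mouse, and TC replicate 1 was above them all. The means were 83.1% ± 8.64 (SD, n = 6) and 94.6% ± 2.04 (SD, n = 9), with an exact permutation p of 0.00220 and an adjusted p of 0.00240. The limit of this test, set by the 5005 ways to choose 6 of 15 mice, is 0.000200, and all its p-values are two-sided.

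Middle clones, of 100 to under 1000 cells, made the opposite pattern. Their share was 1.41% to 26.3% (median 18.4%) in TC mice and 2.83% to 8.06% (median 5.18%) in KT mice. The means were 16.2% ± 8.36 (SD, n = 6) and 5.16% ± 2.00 (SD, n = 9; exact permutation, adjusted p = 0.00240). Again 5 of 6 TC mice lay above every KT mouse and TC replicate 1 lay below.

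For large clones, of 1000 or more cells, the share was 0.274% to 1.19% (median 0.621%) in TC mice and 0.105% to 0.592% (median 0.171%) in KT mice. The groups overlapped: 4 of 6 TC mice were above every KT mouse. The highest KT value was that of replicate 9, and the next was 0.310%. The difference of 0.443 percentage points had an adjusted exact permutation p of 0.00240.

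The numbers behind these shares gave a less even picture. TC mice held 1612 large clones in all, from 13 to 635 per mouse, and KT mice held 468, from 23 to 136. The log2 number differed by 1.85, a 3.59-fold higher count in TC mice, and did not pass (exact permutation p = 0.0222, adjusted 0.0665). Without TC replicate 1, which had 13, the difference was 2.57 (exact permutation, adjusted p = 0.00150), and without KT replicate 9, which had 136, it was 2.04 (adjusted p = 0.04995). For small clones the log2 number differed by 0.0069 (exact permutation p = 0.987).

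Large clones held more of the cells in TC mice. Their share of all cells was 30.4% to 55.4% (median 37.8%) in TC mice and 7.16% to 33.6% (median 17.3%) in KT mice. The means were 40.4% ± 8.87 (SD, n = 6) and 19.4% ± 10.03 (SD, n = 9; exact permutation, adjusted p = 0.00320), and 5 of 6 TC mice were above every KT mouse. Small clones held 26.8% ± 7.15 (SD, n = 6) of the cells in TC mice and 53.5% ± 8.00 (SD, n = 9) in KT mice (exact permutation, adjusted p = 0.00160). On reads scaled to equal totals the differences were 14.03 percentage points for large clones (exact permutation, adjusted p = 0.0563) and -4.55 for small clones (adjusted p = 0.659), and neither passed. The single largest clone held 3.36% ± 3.43 (SD, n = 6) and 3.59% ± 2.38 (SD, n = 9), which differed by less than the spread between mice.

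**Figure D2:**
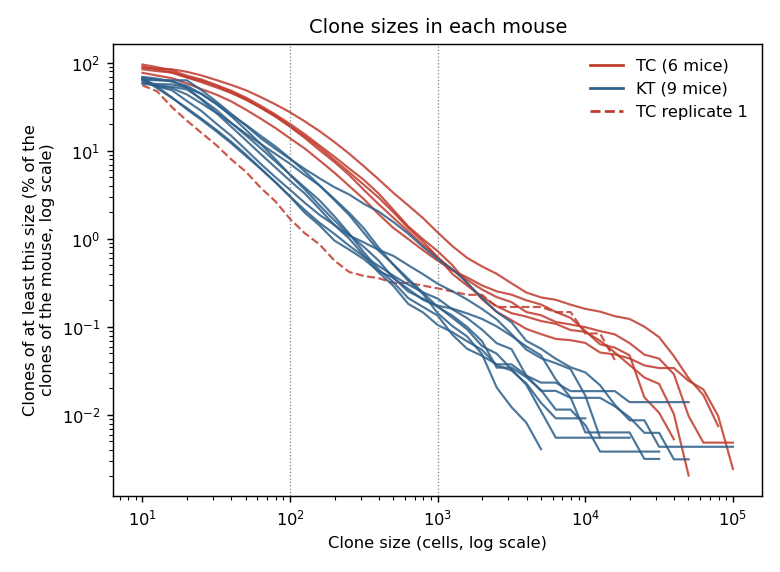
Percent of the clones of a mouse that have at least the size on the x axis, in cells, with 1 line per mouse on log axes and dotted lines at 100 and 1000 cells. The dashed line of TC replicate 1 runs below the KT lines at 100 cells, where the other 5 TC lines run above them, and joins the TC lines toward 10000 cells.

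The percentiles of clone size showed where in the range the genotypes parted. The median clone had 11.3 to 48.3 cells (median over mice 35.7) in TC mice and 12.8 to 24.7 cells (median over mice 19.9) in KT mice. TC replicate 1 was lower than every KT mouse and the other 5 were higher. The log2 difference was 0.71, a 1.64-fold higher geometric mean (exact permutation p = 0.0272, adjusted 0.0310), and on clones of at least 25 cells it was 0.50 (exact permutation, adjusted p = 0.00320). The call was lost on clones of at least 10 cells, at 0.47 (exact permutation, adjusted p = 0.101), and on barcodes of at least 5 reads, at 0.52 (adjusted p = 0.181). It was also lost when any of TC replicates 2 to 5 or KT replicates 2 and 3 was left out (exact permutation, adjusted p of 0.0521 to 0.0749).

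At the 90th percentile clones had 34.9 to 238 cells (median over mice 165) in TC mice and 45.7 to 86.3 cells (median over mice 66.2) in KT mice. The log2 difference was 1.06 (exact permutation, adjusted p = 0.0216), with 5 of 6 TC mice above every KT mouse. Without TC replicate 3 it was 0.89 (exact permutation, adjusted p = 0.0553). At the 99th percentile the ranges were 138 to 1106 cells (median over mice 739) and 193 to 695 cells (median over mice 276), and the log2 difference was 0.98 (exact permutation, adjusted p = 0.0310). There 4 of 6 TC mice were above every KT mouse and TC replicate 1 was below them. Leaving out any of TC replicates 2 to 6 or KT replicates 2, 3 and 7 ended that call (exact permutation, adjusted p of 0.0509 to 0.0749). On clones of at least 10 cells neither percentile passed (exact permutation, adjusted p of 0.0655 for the 90th and 0.101 for the 99th), and on barcodes of at least 5 reads they had adjusted p of 0.0971 and 0.117.

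The highest percentile tested, the size that 1 clone in 1000 exceeded, separated the genotypes fully. It was 3628 to 25833 cells (median over mice 9020) in TC mice and 1085 to 3453 cells (median over mice 1567) in KT mice, so the lowest TC mouse was above the highest KT mouse. The log2 difference was 2.36, or 5.14-fold (exact permutation, adjusted p = 0.00160). This percentile rests on the few clones above it, and on the fewest in TC replicate 1, which had 4740 clones in all. All 8 percentiles tested were higher in TC mice after adjustment over the 8 when every clone was used, and again on clones of at least 25 cells. On clones of at least 10 cells, and on barcodes of at least 5 reads, 7 of the 8 did not pass. There the 10th percentile differed by -0.00387 and 0.18 (exact permutation, adjusted p of 0.984 and 0.549), and the 25th by 0.14 and 0.33 (adjusted p of 0.554 and 0.351). The 75th had adjusted p of 0.0655 and 0.0971, and the 95th had 0.0763 and 0.0971. A scaling of every mouse to the same read total, which removes the difference in summed cells, left TC mice higher by 0.88 at that highest percentile (exact permutation, adjusted p = 0.354) and turned the median to -0.76 and the 99th percentile to -0.50. Under it the share of large clones differed by 0.018 percentage points (exact permutation, adjusted p = 0.939), and the other 2 classes did not pass either.

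**Figure D3:**
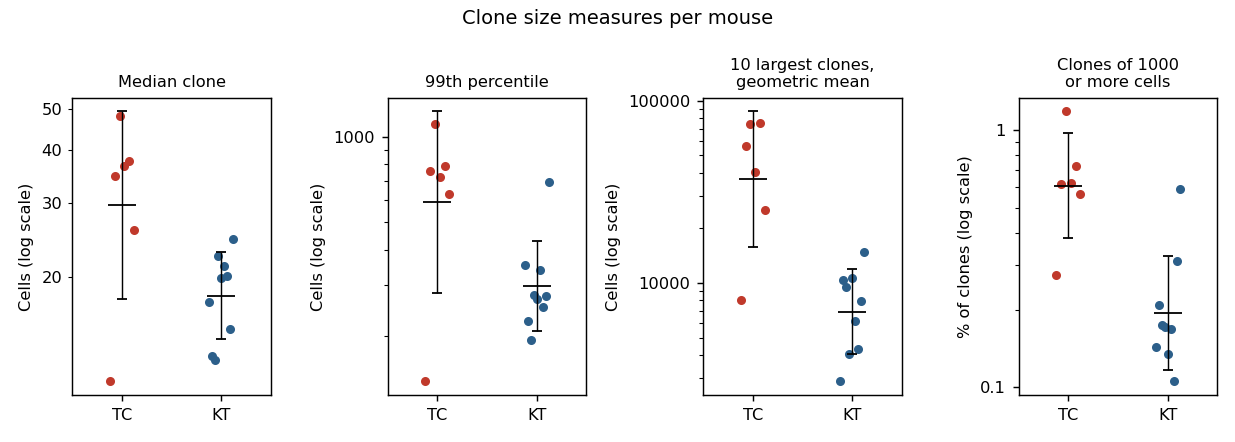
Median clone size, 99th percentile and geometric mean of the 10 largest clones, in cells, and the percent of clones of 1000 or more cells, on log axes, with 1 point per mouse and bars for the mean ± SD of the log values. TC replicate 1 lies below every KT mouse in the first 2 panels and among them in the other 2.

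The largest clones were compared as single values and as the mean of 10. The largest clone had 19482 to 134018 cells (median 79213) in TC mice and 5153 to 109715 cells (median 32067) in KT mice, and the groups overlapped widely. The log2 difference was 1.28 (exact permutation p = 0.0729). It was 1.62 without TC replicate 1 (exact permutation p = 0.0285) and 1.54 without KT replicate 9 (exact permutation p = 0.0263). The geometric mean of the 10 largest clones was 8059 to 75574 cells in TC mice and 2875 to 14793 cells in KT mice, with 5 of 6 TC mice above every KT mouse. That log2 difference was 2.42, or 5.34-fold (exact permutation, adjusted p = 0.00200). On reads scaled to equal totals it was 0.94 and did not pass (exact permutation, adjusted p = 0.0563).

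With class limits of 100 and 1000 cells, a larger part of the large clones was very large in TC mice. Neither this measure nor the share of clones of at least 100 cells that had 1000 or more was planned beforehand. Clones of 10000 or more cells numbered 4 to 86 (median 34) per TC mouse and 0 to 7 (median 2) per KT mouse. They made up 16.6% ± 7.40 (SD, n = 6) of the large clones in TC mice and 5.68% ± 3.52 (SD, n = 9) in KT mice (exact permutation, adjusted p = 0.000799). In TC replicate 1 this share rested on 13 large clones. With class limits of 50 and 500 cells, or of 200 and 2000, the matching difference did not pass (exact permutation, adjusted p of 0.104 and 0.0563). The share of clones of at least 100 cells that had 1000 or more was 5.79% ± 5.14 (SD, n = 6) and 4.51% ± 2.61 (SD, n = 9; exact permutation p = 0.616), and it was 16.3% in TC replicate 1.

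The 10 largest clones of each mouse also differed in vector. The 60 of the TC mice held 1 inert clone, 3 of the Nf1 vector, none of the Rasa1 vector and none of the vector for both genes, and the remaining 4 vectors held 56, or 93.3%. The 90 of the KT mice held 19 inert, 16 Nf1, 11 Rasa1 and 2 of both genes, and the remaining 4 vectors held 42, or 46.7%. Clones of 1 mouse are not replicates, so these counts carry no test.

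The share of each vector in each size class was then compared, in 24 tests over 8 vectors and 3 classes. Of these, 54.2% passed at an adjusted p under 0.05: 6 were higher and 7 lower in TC mice, and 15 were under 0.05 before adjustment. The inert vector and those for Nf1, Rasa1 or both gave 8 calls of 12, of which 1 was higher and 7 lower. The remaining 4 vectors gave 5 calls of 12, all higher. Shares within a class sum to 100%, so a rise in some vectors lowers the others.

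The inert vector, the control, was lower in all 3 classes. Among small clones it held 9.98% to 11.4% (median 10.3%) in TC mice and 12.02% to 13.1% (median 12.5%) in KT mice. Among middle clones it held 8.85% to 9.62% (median 9.13%) and 10.9% to 13.9% (median 12.6%). Among large clones it held 0% to 8.05% (median 5.47%) and 8.70% to 22.6% (median 14.5%). In each class all 6 TC mice were below every KT mouse, with an adjusted p of 0.000533 by the exact permutation test. The value of 0% in TC replicate 1 was 0 of 13 clones, which allows a share of up to 23.1%, a limit above the highest KT mouse.

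The Nf1 vector was lower in TC mice in all 3 classes too. Among small clones it held 13.4% to 17.9% (median 13.96%) in TC mice and 18.2% to 20.4% (median 19.1%) in KT mice. Among middle clones it held 14.2% to 16.4% (median 14.7%) and 18.8% to 23.4% (median 21.3%). The groups did not overlap in either class, with an adjusted exact permutation p of 0.000533 for each. Among large clones the shares were 12.3% ± 2.96 (SD, n = 6) and 19.5% ± 6.39 (SD, n = 9), and 2 of 6 TC mice were below every KT mouse (exact permutation, adjusted p = 0.0404). That call was lost with limits of 200 and 2000 cells (exact permutation, adjusted p = 0.0558) and without KT replicates 2, 3 and 8 and TC replicate 1 (adjusted p = 0.0519). It was lost too when any of TC replicates 2, 3, 5 and 6 or KT replicates 1, 6, 7, 8 and 9 was left out (exact permutation, adjusted p of 0.0526 to 0.0899).

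The share of the Rasa1 vector passed in the middle class alone. Its share of small clones was 14.4% ± 1.18 (SD, n = 6) in TC mice and 15.3% ± 1.15 (SD, n = 9) in KT mice, a difference of -0.88 percentage points (exact permutation, adjusted p = 0.200). Without KT replicates 2, 3 and 8 and TC replicate 1 it was -1.92 and passed (exact permutation, adjusted p = 0.00799). Those KT mice had the lowest Rasa1 shares of small clones among KT mice, at 13.2% to 14.4%. TC replicate 1 had the highest among TC mice, at 16.1%, so leaving these mice out widens the gap. Among middle clones it held 10.4% to 14.5% (median 12.1%) and 9.99% to 18.7% (median 15.9%), which overlapped (exact permutation, adjusted p = 0.0443). That call was lost in 12 of the 15 fits that left out 1 mouse, and was kept without TC replicate 3, KT replicate 2 or KT replicate 3 (exact permutation, adjusted p of 0.0572 to 0.0802 in the 12). Among large clones the share was 6.58% ± 4.26 (SD, n = 6) against 10.6% ± 4.24 (SD, n = 9), with an adjusted exact permutation p of 0.133. With class limits of 50 and 500 cells the difference was -5.34 percentage points (exact permutation, adjusted p = 0.0267), and on reads scaled to equal totals it was -8.52 (adjusted p = 0.000480), so both of these passed.

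The vector for both Nf1 and Rasa1 held 1.44% to 7.49% (median 5.64%) of the small clones in TC mice and 1.41% to 3.91% (median 3.11%) in KT mice, and 5 of 6 TC mice were above every KT mouse. The difference of 2.37 percentage points passed (exact permutation, adjusted p = 0.0227), but on clones of at least 25 cells it was 1.80 (exact permutation, adjusted p = 0.125). It was 1.90 without TC replicate 3 (exact permutation, adjusted p = 0.0579) and 2.14 without TC replicate 5 (adjusted p = 0.0512). Among middle clones the shares were 3.41% ± 1.26 (SD, n = 6) and 3.42% ± 1.27 (SD, n = 9; exact permutation, adjusted p = 0.985). Among large clones they were 0% to 14% (median 5.83%) and 0% to 7.14% (median 2.86%; exact permutation, adjusted p = 0.133). Without TC replicate 1 the difference among large clones was 4.41 percentage points (exact permutation, adjusted p = 0.0249), and without KT replicates 2, 3 and 8 as well it was 4.29 (adjusted p = 0.0325).

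Depth limits the shares of large clones in single mice. The highest share of the pair vector, 14% in TC replicate 6, was 15 of 107 clones, with a Wilson 95% confidence interval of 8.68% to 21.8%. The 0% of KT replicate 3 was 0 of 55 clones, which allows a share of up to 5.45%. These intervals and limits cover counting error only.

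The remaining 4 vectors together made up 55.4% ± 1.87 (SD, n = 6) of the small clones in TC mice and 50.1% ± 1.29 (SD, n = 9) in KT mice. Among middle clones they held 60.4% ± 2.32 and 47.6% ± 2.98, and among large clones 69.9% ± 7.65 and 50.3% ± 9.42. Their 5 calls, all higher in TC mice, came from separate tests of each vector. Among large clones only 1 of these vectors passed, and the differences of the 4 ran from -6.16 to 28.7 percentage points. The sum therefore does not describe each of them.

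**Figure D4:**
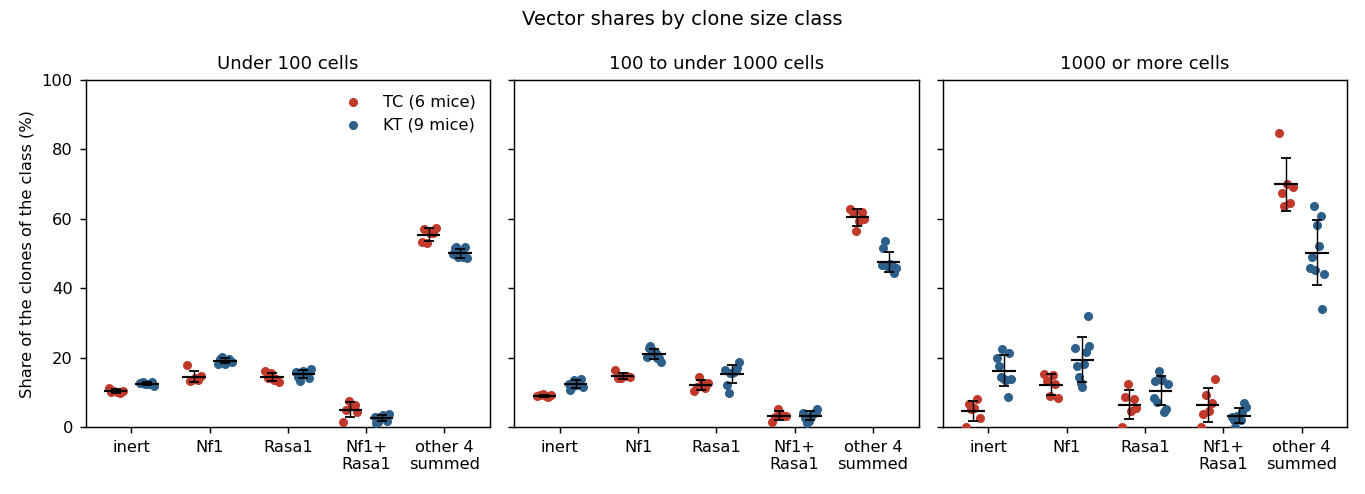
Share of clones held by the inert vector, by those for Nf1, Rasa1 and both, and by the remaining 4 together, in percent, in each size class, with 1 point per mouse and bars for the mean ± SD. The inert points of the TC mice lie below those of every KT mouse in all 3 classes.

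A ratio to the inert vector within the same class does not depend on the shares of the other vectors. This measure was chosen after the shares had been seen. All ratios of a class share the inert count as denominator, so a low inert count raises them together. Their calls are therefore not independent of each other. Of 21 ratios, 76.2% passed: 15 were higher and 1 lower in TC mice. The 3 vectors for Nf1, Rasa1 or both gave 6 calls of 9, and the remaining 4 vectors gave 10 of 12, all higher.

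Among large clones all 3 of these vectors were higher in TC mice. The log2 ratio of the Nf1 vector was 1.25 ± 0.62 (SD, n = 6) in TC and 0.23 ± 0.56 (SD, n = 9) in KT mice, a difference of 1.03 (exact permutation, adjusted p = 0.00725). For the Rasa1 vector it was 0.37 ± 0.58 (SD, n = 6) and -0.62 ± 0.60 (SD, n = 9), a difference of 0.99 (exact permutation, adjusted p = 0.0100). For the vector of both genes it was 0.29 ± 1.04 (SD, n = 6) and -2.10 ± 0.95 (SD, n = 9), a difference of 2.39 (exact permutation, adjusted p = 0.00140), with 5 of 6 TC mice above every KT mouse. Zero counts enter these ratios through a pseudocount of 0.5 clones. In TC replicate 1, 0 of 13 large clones carried the inert, Rasa1 or pair vector. Its Rasa1 and pair ratios of 0 were therefore set by the pseudocount alone, and it is counted among the 5 TC mice above. Its Nf1 ratio, the highest of the 15 mice at 2.32, compares 2 clones with an inert count of 0. That value depends on the pseudocount too. With class limits of 50 and 500 cells the differences for the single-gene vectors were 0.46 for Nf1 (exact permutation, adjusted p = 0.252) and 0.20 for Rasa1 (adjusted p = 0.481), and with limits of 200 and 2000 cells neither passed (adjusted p of 0.453 and 0.302). On reads scaled to equal totals they were 0.52 for Nf1 (exact permutation, adjusted p = 0.360) and 0.54 for Rasa1 (adjusted p = 0.375), and the pair vector kept its call at 2.92 (adjusted p = 0.000524).

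Without KT replicates 2, 3 and 8 and TC replicate 1 the pair vector kept its call and the single-gene vectors did not. The differences were then 2.15 for both genes (exact permutation, adjusted p = 0.0105), 0.80 for Nf1 (adjusted p = 0.0606) and 0.85 for Rasa1 (adjusted p = 0.0519).

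Among small clones the Nf1 vector was lower over inert, by a log2 difference of -0.12 (exact permutation, adjusted p = 0.0144). Over all alternatives the difference was as small as -0.083. The highest adjusted p was 0.0800 (exact permutation), so the Nf1 call was not kept in every setting. The Rasa1 vector was higher by 0.19 (exact permutation, adjusted p = 0.0176), and on clones of at least 25 cells by 0.06 (adjusted p = 0.632). Without KT replicates 2, 3 and 8 and TC replicate 1 it was 0.096 and did not pass (exact permutation, adjusted p = 0.0909). The pair vector was higher by 1.09 (exact permutation, adjusted p = 0.0228), and on clones of at least 25 cells by 0.77 (adjusted p = 0.115). Leaving out TC replicate 3, 4 or 5 ended the call for the pair vector (exact permutation, adjusted p of 0.0531 to 0.0636). In the middle class none of the 3 passed, with differences of -0.07, 0.12 and 0.51 (exact permutation, adjusted p of 0.384, 0.315 and 0.122).

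**Figure D5:**
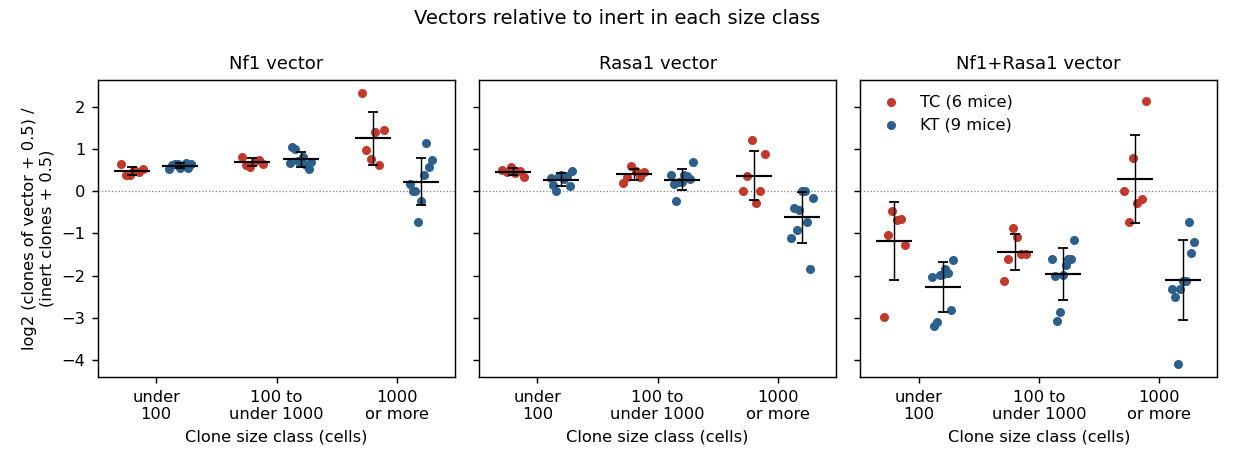
Log2 ratio of the vectors for Nf1, Rasa1 and both to the inert vector in each size class, with 1 point per mouse and bars for the mean ± SD. Among large clones the TC mean is 1.03, 0.99 and 2.39 above the KT mean.

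Whether a vector moved between size classes was measured as the log2 ratio of its share of large clones to its share of small clones. Of 8 vectors, 37.5% passed. The inert vector had -1.06 ± 0.65 (SD, n = 6) in TC mice and 0.30 ± 0.37 (SD, n = 9) in KT mice, a difference of -1.36 (exact permutation, adjusted p = 0.00320), and 5 of 6 TC mice were below every KT mouse. TC replicate 1 is among these 5, at -1.95. As 0 of its 13 large clones were inert, that value depends on the pseudocount. The same holds for its 1.03 for the pair vector, with 0 of 13. Differences for Nf1 (-0.20), Rasa1 (-0.56) and both genes (-0.06) did not pass, with adjusted p of 0.483, 0.226 and 0.917 by the exact permutation test. On scaled reads the Nf1 and Rasa1 differences were -1.36 and -1.62 and passed (exact permutation, adjusted p of 0.00575 and 0.000533), and with limits of 50 and 500 cells Rasa1 passed at -0.70 (adjusted p = 0.0416). Of the remaining 4 vectors, 1 was higher and 1 lower.

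A further measure not planned beforehand was the percent of the inert clones that were large. It was 0.358% ± 0.246 (SD, n = 6) in TC mice and 0.292% ± 0.193 (SD, n = 9) in KT mice (exact permutation p = 0.563). The sign of this difference turned on clones of at least 25 cells, at -0.295 percentage points, and on scaled reads, at -0.249 (exact permutation, adjusted p = 0.0248). The median inert clone had 30.5 ± 11.9 cells (SD, n = 6) in TC mice and 17.4 ± 3.84 cells (SD, n = 9) in KT mice. TC replicate 1, at 11.3 cells, was below every KT mouse. The KT mean lies within the 10.2 to 20.5 cells where the step in read counts fell. These medians were not tested and not recomputed on clones of at least 25 cells.

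Sizes of each vector's clones relative to inert clones of the same mouse gave 33.3% of 21 tests past the threshold. Among the vectors for Nf1, Rasa1 or both, 1 of 9 passed, and it was lower in TC mice. Without KT replicates 2, 3 and 8 and TC replicate 1 the median of the Rasa1 vector was lower too, by a difference of -0.21 (exact permutation, adjusted p = 0.00909), and without KT replicate 2 alone it was -0.21 (adjusted p = 0.0341). The call on all mice was the median size of the pair vector, at 0.06 ± 0.27 (SD, n = 6) over inert on the log2 scale in TC mice and 0.49 ± 0.22 (SD, n = 9) in KT mice, a difference of -0.43 (exact permutation, adjusted p = 0.0156). On clones of at least 10 cells it was -0.22 (exact permutation, adjusted p = 0.0876) and on barcodes of at least 5 reads -0.25 (adjusted p = 0.253), and neither passed. On clones of at least 25 cells it was -0.21 and passed (exact permutation, adjusted p = 0.0410). The remaining 4 vectors gave 6 calls of 12, all higher.

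At the 99th percentile the differences over inert were 0.18 for Nf1 (exact permutation, adjusted p = 0.125), 0.19 for Rasa1 (adjusted p = 0.154) and 0.53 for both (adjusted p = 0.338). Without KT replicate 7 the Nf1 difference was 0.22 (exact permutation, adjusted p = 0.0341), and without KT replicate 8 the pair difference was 0.74 (adjusted p = 0.0297). On clones of at least 25 cells they were larger, at 0.78 for Nf1, 0.49 for Rasa1 and 1.24 for both, and all 3 passed (exact permutation, adjusted p of 0.0411, 0.0410 and 0.00280). TC replicate 1 kept 773 clones there. Before that limit it had 68 clones of the pair vector and 536 inert clones, so its 99th percentiles rest on few clones.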

How the data were processed

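Barcode regions were amplified from 32 µg of bulk lung DNA per mouse and sequenced, per the labels' protocols. The deposited table gives read counts per barcode and the authors' number of cells per clone, a signal made from those counts. How barcodes were filtered and how cells were computed is not given in the sources used here. Cells follow reads by a factor per mouse: within a mouse the lowest cells per read was at least 0.779 of the highest.

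Each of the 15 mice was 1 replicate, numbered in accession order. The labels give separate mice. Percentiles and numbers of clones or cells were compared on the log2 scale, and shares in percent. Differences in means were tested by exact two-sided permutation over 5005 splits, with Benjamini-Hochberg adjustment within each family. Log ratios of shares used a pseudocount of 0.5 clones. The code was tested on simulated data. Python 3.11.15, numpy 2.4.6, pandas 2.3.3 and scipy 1.17.1 were used.

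Alternatives were other class limits, minimum sizes, minimum reads, reads scaled to equal totals and leaving out mice. Members, lists and tests were chosen with earlier results of these data known. All 8 vectors were tested. Not every allele and vector in the labels is reported by name or singly here. Barcode sequences were not used here, so barcodes shared between mice were not counted.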

Additional observations from a re-analysis of the deposited data

Results flagged for a closer look

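In 110 groups of values tested for a mouse far from the others of its genotype, 18 had one, against 5.5 expected by chance at 1 in 20. Of these, 13 were TC replicate 1, 4 were KT replicate 9 and 1 was KT replicate 8. The groups are overlapping measures of the same 15 mice and are not independent, so 1 unusual mouse can be flagged many times.

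TC replicate 1, the mouse with the fewest reads, was low in the log2 number of middle clones, at 6.08, and in the share of cells in middle clones, at 6.32%. Its log2 size percentiles were low at 4.19 (75th), 5.12 (90th), 5.76 (95th) and 7.11 (99th). Its largest clone held 10.2% of its cells, the highest of the TC mice. The inert vector held 11.4% of its small clones, and the Nf1 vector 17.9% of the small and 16.4% of the middle clones, all above the other TC mice. The vector for both Nf1 and Rasa1 stood at -2.97 over inert among its small clones, on the log2 scale. Of its clones of at least 100 cells, 16.3% had 1000 or more, and of its 13 large clones 30.8% had 10000 or more.

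KT replicate 9 was high in the share of large clones, at 0.592%, in their log2 number, at 7.09, and in the log2 99th percentile, at 9.44, and low in the share of cells in small clones, at 36.2%. KT replicate 8 was high in the log2 99th percentile of the pair vector over inert, at 1.81.

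The median size of the pair vector over inert differed between genotypes by -0.43 on the log2 scale in the permutation test. It is the only size percentile of the vectors for Nf1, Rasa1 or both that passed on all clones.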

How the results depend on the processing

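Scaling every mouse to the same read total removes differences in summed cells by construction. It turned the log2 percentile differences to -0.65 (10th), -0.42 (25th), -0.76 (50th), -0.55 (75th), -0.42 (90th), -0.41 (95th) and -0.50 (99th), the largest clone to -0.20, and the log2 numbers to -0.0197 for large and -0.44 for middle clones. The share of cells in middle clones became -9.49 percentage points. Calls were lost for the share of large clones (0.018), the cells they held (14.03), the cells in small clones (-4.55) and the 10 largest clones (0.94), and 7 of 8 vectors passed for large over small. The median and 99th percentile lost their calls at 0.47 and 0.74 on clones of at least 10 cells and at 0.52 and 0.86 on barcodes of at least 5 reads. The number of large clones passed with limits of 200 and 2000 cells, at 1.88, and without KT replicates 2, 3 and 8 and TC replicate 1, at 2.66, where the number of clones also passed, at 0.69. Of the other values that changed sign, the 10th percentile had passed on all clones, the percent of inert clones that were large passed on scaled reads, and the rest passed on neither side. With limits of 50 and 500 cells they were the number of small clones (-0.19), the cells in middle clones (-0.12) and the pair vector's share of middle clones (0.40). That share was also 0.63 with limits of 200 and 2000 cells, 0.79 on scaled reads and 0.074 without the 4 mice. The 10th percentile was -0.00387 and the Nf1 median over inert -0.000127 on clones of at least 10 cells. The percent of inert clones that were large was -0.025 (limits of 200 and 2000), -0.0602 (10 cells), -0.249 (scaled reads) and -0.295 (25 cells). The pair vector's large over small ratio was 0.0062 (limits of 200 and 2000), 0.154 (10 cells), 0.090 (5 reads), 0.045 (pseudocount in proportion to share) and 0.245 (25 cells), and Nf1 over inert among middle clones was 0.39 (limits of 200 and 2000). A test on mean ranks lost the calls on the share of Nf1 among large (adjusted p = 0.0617), Rasa1 among middle (0.0617) and the pair vector among small clones (0.0511), all by exact permutation. Thinning to equal reads per cell lost that on the pair vector's median over inert (-0.41, exact permutation, adjusted p = 0.0515). The cause was not tested for any of these.

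Leaving out 1 mouse at a time gave 1.46 to 2.57 for the number of large clones, 0.98 to 1.62 for the largest clone, 0.0034 to 0.70 for the number of clones, 0.57 to 0.99 for the median and 0.80 to 1.40 for the 99th percentile. It also gave -1.61 to 0.27 for the cells of the largest clone, -0.16 to 0.46 for the number of small clones, and -0.81 to 1.80 for the share of clones of at least 100 cells that were large. For the pair vector it gave -0.31 to 0.13 for large over small and -0.38 to 0.37 for its share of middle clones, and for the Nf1 median over inert -0.0019 to 0.033. No paired analysis was made, since the TC and KT mice are separate animals and the labels pair none of them.

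The large class is the shallowest, with 13 clones in TC replicate 1 and 23 in KT replicate 7, which limits every share in it.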
